A study of Mus musculus with 12 samples.

Results

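RNA made by resting macrophages of 2 kinds was compared, the MPI-2 cell line against bone marrow-derived macrophages (BMM), without stimulation. The comparison was defined by the sample titles alone and used the 3 arrays of unstimulated MPI-2 and the 3 of unstimulated BMM, 6 of the 12 arrays of the series, and all 19937 genes that the array names. BMM were C57BL/6 marrow cells differentiated ex vivo with macrophage colony-stimulating factor (M-CSF) and kept in DMEM. MPI-2 is a C57BL/6 macrophage line from fetal liver, kept in RPMI with granulocyte-macrophage colony-stimulating factor (GM-CSF). Both media held 10% fetal calf serum, both groups received a mock treatment, and cells took up 4-thiouridine for 60 min before the labelled RNA was purified and hybridised to Affymetrix whole-transcript arrays. The same cells given lipopolysaccharide (LPS), labelled from 30 min after its addition, make up the other 6 arrays, and their levels are given only where named. All 12 arrays entered the fit, so the spread behind each SE and p-value draws on the LPS arrays too. MPI-2 is 1 of several MPI lines, so its 3 arrays are repeats of 1 line, and origin, growth factor and medium all differ between the groups at once and cannot be told apart. The labels say nothing of the age or sex of the marrow donors, or of pooling.

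M-CSF and GM-CSF are the main growth factors of macrophages. M-CSF acts through the receptor tyrosine kinase Csf1r and maintains most resident tissue macrophages, whereas GM-CSF acts through a receptor of an alpha chain and a shared beta chain that signals through the kinase Jak2 and the transcription factor Stat5. In the lung, GM-CSF directs fetal monocytes to become alveolar macrophages, which take up surfactant lipid, depend on the nuclear receptor Pparg and renew themselves locally. MPI cells are known as self-renewing, GM-CSF-dependent macrophages that resemble alveolar macrophages. 4-Thiouridine is a uridine analogue that cells build into RNA as they transcribe it, so the values below stand for recent transcription more than for the stored RNA pool. An equal 200 ng of labelled RNA was used per sample, so values are levels within that RNA and not amounts per cell.

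Values are deposited log2 levels, and a difference is MPI-2 minus BMM on the log2 scale with its standard error (SE), from a linear model fitted with limma, with Benjamini-Hochberg adjustment over all genes and a threshold of 0.05. Genes were named by a rule stated with the methods, and further members of the lists were chosen after their values were seen. For list genes named by a low p-value or after their values were seen, calls and lack of overlap follow in part from that choice. Levels are given array by array, in the order replicate 1, 2, 3 of the titles, or as a mean with the SD over 3 arrays. A level of 3.36 is called background, the 95th percentile of the means of 1027 olfactory receptor genes over all 12 arrays. Where a called gene had a group mean at or under it, its fold is given as "at least", measured from background. MPI-2 arrays correlated with one another at r of 0.994 to 0.995 across genes and BMM arrays at 0.978 to 0.989, and the median SD of a gene was 0.12 in MPI-2 and 0.176 in BMM. BMM replicate 1 was least like its group. The serial numbers in the sample descriptions form separate runs for the cell types, and what these numbers record is not stated. Whether the cell types were processed apart could not be settled, and such an effect could not be told apart from cell type. Only 3 arrays a group limit the precision. The titles call the arrays biological replicates without naming animals or cultures, so a p-value here reflects only how far these arrays vary, which may in part be technical.

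Both groups carried the marks of macrophages. All 18 measured macrophage markers were above background in both, and Lyz2, lysozyme, was at 10.62, 10.68 and 10.47 in BMM and 10.79, 10.62 and 10.62 in MPI-2. The lineage factor Spi1 (PU.1) was at 10.09, 9.22 and 9.46 in BMM and 9.59, 9.65 and 9.45 in MPI-2, ranges that overlapped. Of these 18 markers 3 were higher in MPI-2 and 10 lower. Of all genes above background in at least 1 group, 32.3% were higher and 24.3% lower. Of the markers of other cell types, those under background in both groups were 12 of 17 for T, B and NK cells, 11 of 14 for mast cells and basophils, 9 of 18 for neutrophils, 9 of 14 for stem and progenitor cells and 7 of 14 for dendritic cells. The same held for 4 of 12 erythroid and megakaryocyte, 6 of 14 fibroblast and 8 of 13 hepatocyte and endothelial markers. Called members of these lists numbered 3 higher and 4 lower for neutrophils and 4 and 3 for dendritic cells, 2 and 2 for stem cells, 1 and 2 for fibroblasts, and in the others 0 higher and between 2 and 4 lower. Beside these counts, 20.6% of all genes were called higher and 17.95% lower. Of the neutrophil genes, S100a8, a calcium-binding protein, was higher by 1.41 ± 0.17, the chemokine receptor Cxcr2 at least 1.77-fold and the protease Mmp8 at least 1.05-fold, while the G-CSF receptor Csf3r was at least 1.74-fold and Camp at least 1.13-fold lower, and S100a9 and Ngp were called lower under background. Of the dendritic cell genes, Clec9a was at least 5.54-fold higher, Ccr7 higher by 0.67 ± 0.15, Batf3 by 0.46 ± 0.13 and Sirpa, which macrophages also express, by 0.43 ± 0.14, with Bst2 lower (-1.44 ± 0.14), Xcr1 at least 1.18-fold lower and Cd209a called lower under background. Of the stem cell genes, Meis1 and Sox4 were higher by 0.89 ± 0.17 and 0.87 ± 0.16, and Gata2 and Tal1 lower (-0.50 ± 0.16 and -0.79 ± 0.15). Several of these calls were lost without 1 array: Batf3 without MPI-2 replicate 1 (0.40), Sirpa without BMM replicate 2 (0.33) or MPI-2 replicate 1, 2 or 3 (0.44, 0.40 and 0.44), Gata2 without BMM replicate 3 (-0.44) or MPI-2 replicate 3 (-0.48), and Cd209a without BMM replicate 1 (-0.35) or MPI-2 replicate 2 (-0.43). S100a9 lost its call without MPI-2 replicate 1 (-0.33), and Ngp without BMM replicate 3 (-0.38) or MPI-2 replicate 1 or 2 (-0.39 each). Sirpa was at 0.0008 after cyclic loess, and Xcr1 and Camp lost their calls after a further quantile normalization (-0.40 and -0.31). The part of such cells in other results was not tested. The median of the neutrophil markers per array was 3.08, 3.04 and 3.02 in BMM and 2.84, 2.89 and 2.94 in MPI-2, and Mpo and Ly6g were among the 9 under background in both. In a bulk sample, fewer cells of a type and less RNA per cell cannot be told apart.

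The cell types differed across a large part of the genome. Of 19937 genes, 4108 (20.6%) were higher in MPI-2 and 3579 (17.95%) lower, 38.6% in all. By at least 2-fold, 2053 (10.3%) were higher and 1010 (5.07%) lower. All 3 MPI-2 arrays lay above all 3 BMM arrays for 4594 genes (23.04%), and below them for 5850 (29.3%). Among the 12560 genes above background in at least 1 group, 32.3% were higher and 24.3% lower. Many of the lower calls were of dim genes: 531 had both group means under background, against 46 of the higher calls. The median difference of all genes was -0.10, and 53.44% of the called genes were higher in MPI-2. The split turned on the scaling of the arrays. With each array centred on its own median, the median of all genes became 0.084 and 72.49% of called genes were higher (5032 higher and 1910 lower), whereas cyclic loess gave 3348 and 3285. List medians below are read against the -0.10 of all genes, and list counts against the 20.6% higher and 17.95% lower. Where nearly all members of a list were above background, the like shares are 32.3% and 24.3%.

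**Figure D1:**
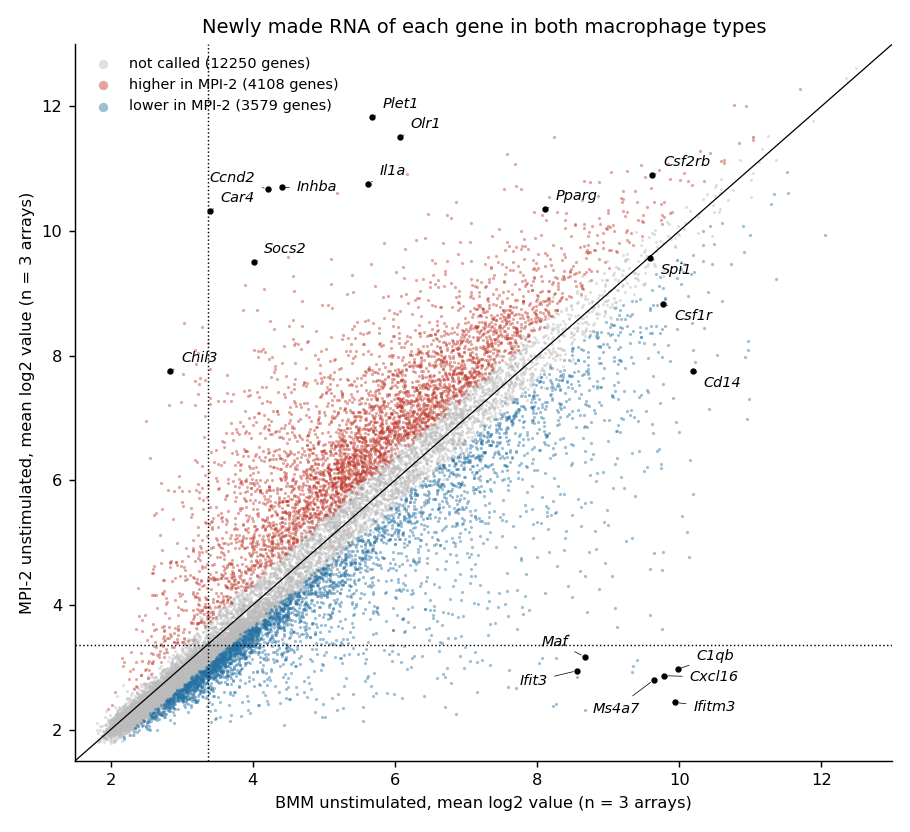
Mean log2 value of each of 19937 genes in unstimulated BMM (x axis) and MPI-2 (y axis), n = 3 arrays each. The solid line marks equal values, dotted lines mark the background level of 3.36, and colours give the 4108 genes called higher and 3579 called lower in MPI-2. Named genes such as Car4 and Ifitm3 lie at background in one cell type and near a level of 10 in the other.

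The genes furthest above BMM in MPI-2 were a carbonic anhydrase, a cyclin and a secreted growth factor. Car4, a membrane carbonic anhydrase known from alveolar macrophages, was at 3.72, 3.22 and 3.24 in BMM and 10.36, 10.30 and 10.32 in MPI-2. It was near background on every BMM array and the groups lay far apart, with a difference of 6.94 ± 0.13 (limma adjusted p = 2.45e-14). Ccnd2, cyclin D2, which drives cells from G1 towards S phase, was at 4.37, 3.93 and 4.32 in BMM and 10.77, 10.61 and 10.63 in MPI-2 (6.46 ± 0.14). Inhba, the activin A subunit, was at 5.04, 3.79 and 4.41 in BMM and 10.46, 10.79 and 10.84 in MPI-2 (6.29 ± 0.22). The activin antagonist Fst, which binds that protein outside the cell, was also among the 15 largest increases, with 4.91 ± 0.17. For Car4, Ccnd2 and Inhba every MPI-2 array lay over 5 log2 units above every BMM array.

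Surface and secreted proteins filled most of the other places. Plet1, a surface protein of alveolar macrophages, was higher by 6.16 ± 0.39, the oxidised-LDL receptor Olr1 by 5.44 ± 0.18, the arginine and lysine transporter Slc7a2 by 5.42 ± 0.13, the receptor-like Mcemp1 by 5.24 ± 0.17 and the fungal-pattern lectin Clec4n (dectin-2) by 5.09 ± 0.11. The cytokine Lif was at 8.40, 8.41 and 8.57 in MPI-2 and 3.73, 3.10 and 3.01 in BMM, at least 34.2-fold higher. Il1f9, IL-36 gamma, was at least 20.7-fold higher, the chitinase-like protein Chil3 at least 21.0-fold and the BMP receptor Bmpr1a at least 35.5-fold. The limma adjusted p of these genes ran from 7.33e-14 for Clec4n to 4.15e-09 for Plet1. They were named from genes called without overlap between the groups, so their calls and separation followed from that rule.

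Among the genes furthest below BMM, most were near or under background on every MPI-2 array. Ifitm3, a membrane protein that blocks virus entry, was at 10.38, 9.34 and 10.11 in BMM and 2.51, 2.47 and 2.33 in MPI-2. That is at least 95.6-fold lower in MPI-2 (limma adjusted p = 3.99e-13). C1qb, a chain of complement C1q made by tissue macrophages, was at 10.21, 9.65 and 10.10 in BMM and 2.95, 2.83 and 3.14 in MPI-2, at least 98.3-fold lower. Cxcl16, a chemokine that is also a scavenger receptor, was at 9.74, 9.57 and 10.05 in BMM and 2.94, 2.94 and 2.72 in MPI-2, at least 85.8-fold lower. Ms4a7, a tetraspanning membrane protein of mature macrophages, was at 9.77, 9.51 and 9.64 in BMM and 2.83, 2.87 and 2.68 in MPI-2, at least 77.3-fold lower. For each of these 4 genes every MPI-2 array was under background and every BMM array over 5 log2 units above it.

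Signalling and RNA-binding proteins came next in this direction. S1pr1, the sphingosine phosphate receptor that guides leukocyte exit from tissue, was at least 62.8-fold lower, the adaptor Stap1 at least 65.8-fold and Zfp36l1, which destabilises AU-rich mRNAs, at least 63.4-fold. The proton-sensing receptor Gpr65 was lower (-6.15 ± 0.22) and the ubiquitin ligase Neurl3 (-5.76 ± 0.21). The integrin adaptor Fyb, the glycosyltransferase B4galt6 and Ms4a4a were at least 29.1-fold, 39.7-fold and 29.9-fold lower. The limma adjusted p of these genes ran from 3.21e-14 for Zfp36l1 to 1.28e-11 for Neurl3. The naming rule had required a call and no overlap here too.

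**Figure D2:**
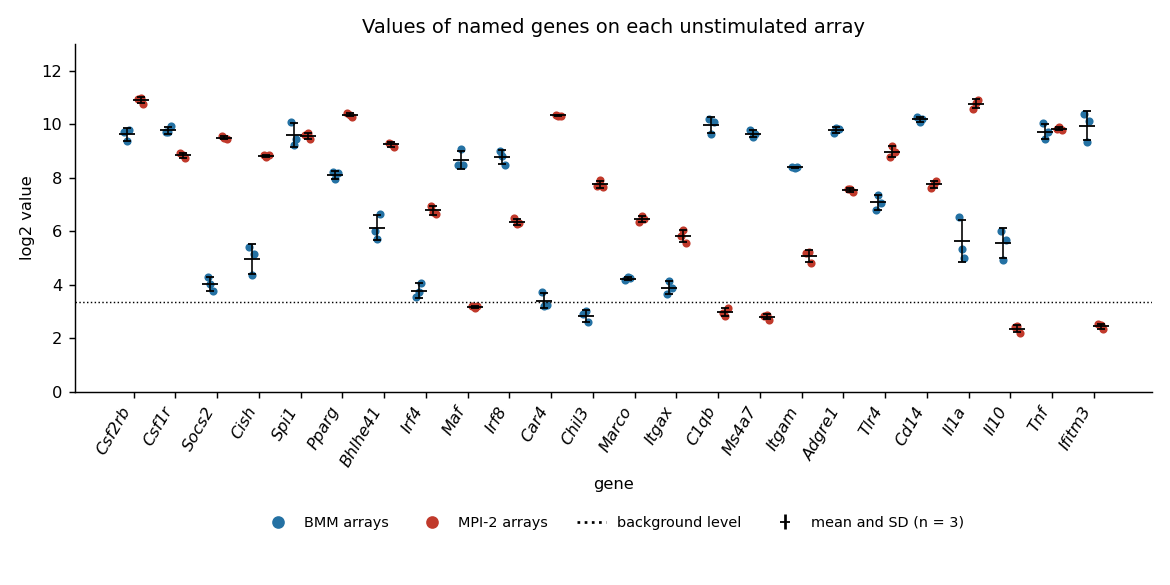
Log2 values of 24 named genes on each unstimulated array, BMM in blue and MPI-2 in red, with the mean and SD of 3 arrays in black. The dotted line is the background level of 3.36. The ranges of Spi1 and Tnf overlap between the cell types, while Car4, C1qb, Ms4a7, Maf and Ifitm3 are near or under background in one of them.

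Genes of growth factor reception and its feedback were examined first. Csf1r, the M-CSF receptor, was at 9.70, 9.70 and 9.93 in BMM and 8.93, 8.83 and 8.72 in MPI-2. It was lower in MPI-2 (-0.95 ± 0.14, adjusted p = 4.43e-05) yet remained far above background on every array. Csf2rb, the common signalling chain for GM-CSF, IL-3 and IL-5, was at 9.72, 9.35 and 9.78 in BMM and 10.95, 10.97 and 10.77 in MPI-2, higher by 1.28 ± 0.14 (adjusted p = 1.56e-06), while the alpha chain Csf2ra was lower (-0.87 ± 0.23). Csf2rb2, the IL-3-specific beta chain of the mouse, differed by 0.33 ± 0.15 and did not pass (adjusted p = 0.102), though it did with median-centred arrays. Of 17 receptors and ligands of this list 1 was higher and 7 lower, with 7 under background in both groups, including the ligand genes Csf2 and Csf3. Cyclic loess gave 3 higher and 7 lower, and median centring 4 and 7.

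The feedback genes Socs2 and Cish were higher in MPI-2. Socs2, a suppressor of cytokine signalling, was at 4.27, 4.02 and 3.74 in BMM and 9.58, 9.47 and 9.46 in MPI-2, higher by 5.49 ± 0.16 (adjusted p = 1.11e-12). Cish, the cytokine-inducible SH2 protein, was at 5.42, 4.35 and 5.14 in BMM and 8.83, 8.78 and 8.85 in MPI-2, higher by 3.85 ± 0.23 (adjusted p = 2.49e-09). Both are known targets of Stat5, and for both the groups lay apart on every array. Stat3 was higher by 0.50 ± 0.13, a call lost after cyclic loess (0.064) or a further quantile normalization (0.21), and the lipid phosphatase Inpp5d (SHIP1) was lower (-1.56 ± 0.16). In all, 4 of 17 members were higher and 4 lower (2 and 6 after cyclic loess, 6 and 1 with median-centred arrays, 4 and 2 without BMM replicate 3 or MPI-2 replicate 1 or 2, and 4 and 1 without MPI-2 replicate 3), and the kinase Jak2 did not pass (-0.24 ± 0.17, adjusted p = 0.278) but was called lower under 4 of the 15 alternatives, with -0.67 after cyclic loess.

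The promoter of Cish is shown because it holds the paired STAT motif next to the start. The 200 bases run from 170 before to 30 after the RefSeq transcription start, chr9:107296489-107296688 on the plus strand of GRCm38.p6, and capitals mark matches to TTCNNNGAA.
Cish: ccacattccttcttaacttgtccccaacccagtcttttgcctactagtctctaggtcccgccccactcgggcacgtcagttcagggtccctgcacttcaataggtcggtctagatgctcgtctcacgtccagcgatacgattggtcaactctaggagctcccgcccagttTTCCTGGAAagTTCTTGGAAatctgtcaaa
The matches begin at positions 1 and 12 counted from the start. This motif, read on both strands, occurred in 8.30% of all 32851 RefSeq promoter windows from 250 bases before to 50 after a start, and in 2 of 16 windows of the SOCS and STAT list. The Cish promoter was chosen after its values were seen, and a match of letters does not show that a factor binds.

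Transcription factors split in equal numbers, 15 of 45 higher and 15 lower. Of genes above background, as 44 of these were, 32.3% were higher and 24.3% lower, so the higher share was near the general one. On the higher side stood Tfec, a relative of Mitf, at 3.56 ± 0.17, and the related repressors Bhlhe40 at 3.13 ± 0.20 and Bhlhe41 at 3.12 ± 0.18. Bhlhe41, a factor of alveolar macrophage self-renewal, was at 6.02, 5.72 and 6.63 in BMM and 9.31, 9.25 and 9.16 in MPI-2. Irf4, an interferon regulatory factor of alternatively activated and GM-CSF-grown cells, was at 3.53, 3.73 and 4.07 in BMM and 6.95, 6.72 and 6.65 in MPI-2. Its difference was 3.00 ± 0.16 (adjusted p = 4.97e-10), and its BMM level was close to background.

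Outside this list Pparg, the nuclear receptor of lipid handling that GM-CSF induces in alveolar macrophages, was at 8.22, 7.94 and 8.18 in BMM and 10.40, 10.36 and 10.29 in MPI-2, higher by 2.24 ± 0.14. Cebpb was higher by 2.06 ± 0.28 and Myc by 1.56 ± 0.18, and Klf4 by 0.75 ± 0.23, a call lost under 6 of the 15 alternatives, with values from 0.37 after cyclic loess to 0.74 without MPI-2 replicate 2, and also without BMM replicate 2 (0.59), BMM replicate 3 (0.71) or MPI-2 replicate 3 (0.74). Cebpa did not pass (0.15 ± 0.18), nor did Runx1 (0.096 ± 0.16) and Mitf (0.0048 ± 0.13). Gata6, known from peritoneal macrophages, was higher by 2.52 ± 0.17.

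On the lower side Maf stood out. Maf, which restrains macrophage proliferation, was at 8.46, 9.06 and 8.48 in BMM and 3.19, 3.14 and 3.19 in MPI-2. No MPI-2 array exceeded background, and the gene was at least 39.5-fold lower (adjusted p = 2.23e-11). Id3, an inhibitor of helix-loop-helix factors, was lower (-4.11 ± 0.32), the aryl hydrocarbon receptor Ahr (-3.11 ± 0.13) and the interferon regulatory factor Irf8 (-2.42 ± 0.17), from 8.76 ± 0.27 (SD, n = 3) in BMM to 6.35 ± 0.12 in MPI-2. The orphan receptors Nr4a1 and Nr4a2 were lower (-2.26 ± 0.27 and -3.46 ± 0.21), while Nr4a3 was higher by 1.46 ± 0.17.

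Genes known from alveolar macrophages were mostly higher in MPI-2, 28 of 37, with 4 lower and a median of 1.72. The list median per array was 4.18, 4.28 and 4.07 in BMM and 7.30, 7.30 and 7.18 in MPI-2. Ctsk, cathepsin K, ran from 4.57 ± 0.38 (SD, n = 3) in BMM to 9.28 ± 0.042 in MPI-2, higher by 4.71 ± 0.16. The scavenger receptor Marco was at 4.16, 4.28 and 4.23 in BMM and 6.34, 6.57 and 6.44 in MPI-2, higher by 2.23 ± 0.16, and Itgax, the integrin chain CD11c, at 3.63, 4.15 and 3.89 in BMM and 5.84, 6.03 and 5.57 in MPI-2, higher by 1.92 ± 0.17. For each of the 3 genes the groups did not overlap.

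Lipid-binding and keratin genes of this list were higher too, as Fabp4 by 1.25 ± 0.17, Fabp5 by 2.29 ± 0.18, Krt79 by 1.72 ± 0.17 and the lipid exporter Abcg1 by 1.27 ± 0.24. The lectin receptor Clec7a (dectin-1) was higher by 3.81 ± 0.19 and the proton pump subunit Atp6v0d2 by 3.13 ± 0.21. Siglecf, the surface lectin used to sort alveolar macrophages, did not follow: it was at 3.84, 4.12 and 3.87 in BMM and 3.44, 3.30 and 3.42 in MPI-2, within 1 log2 unit of background, and lower (-0.56 ± 0.16). That call was lost after cyclic loess (-0.34), a further quantile normalization (-0.33) and median centring (-0.37), and without BMM replicate 2 (-0.47) or MPI-2 replicate 2 (-0.51). Igf2r was lower (-2.57 ± 0.15), and Plin2, the lipid droplet coat, did not pass (-0.026 ± 0.13). With median-centred arrays 28 were higher and 1 lower, and without MPI-2 replicate 2 28 and 2.

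Genes of M-CSF-grown and tissue macrophages ran the other way, with 25 of 37 lower, 3 higher and a median of -1.61 (-1.26 with background-limited genes at their bound). Lgmn, the lysosomal protease legumain, was at 10.12, 10.16 and 10.13 in BMM and 4.86, 4.68 and 4.76 in MPI-2, lower (-5.37 ± 0.18). The scavenger receptor Stab1 was lower (-4.70 ± 0.18), the lipid carrier Apoe (-3.93 ± 0.18), the lipid-sensing receptor Trem2 (-2.72 ± 0.20), the growth factor Igf1 (-2.43 ± 0.12) and the fractalkine receptor Cx3cr1 (-2.01 ± 0.25). Pf4, platelet factor 4, which also counts among the megakaryocyte markers, was at least 8.25-fold lower, as was Ppbp at least 1.03-fold, and the megakaryocyte integrin chain Itga2b was lower (-0.43 ± 0.12), a call lost after cyclic loess (-0.25). The 3 members that were higher were P2ry12 at 0.73 ± 0.13 and the receptors of apoptotic cell uptake Axl at 5.80, 5.35 and 5.65 in BMM and 8.44, 8.44 and 8.19 in MPI-2 (2.76 ± 0.14) and Mertk at 6.59, 7.36 and 7.52 in BMM and 9.16, 9.07 and 9.08 in MPI-2 (1.95 ± 0.22). The mannose receptor Mrc1 did not pass (0.59 ± 0.30, adjusted p = 0.137), though it did without BMM replicate 2 (0.86) and with the replicate numbers as a block.

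The classical surface markers Itgam and Adgre1 belonged to the lower set. Itgam, the integrin chain CD11b, was at 8.40, 8.38 and 8.39 in BMM and 5.17, 5.22 and 4.82 in MPI-2, lower (-3.32 ± 0.13, adjusted p = 1.94e-11). Adgre1, the F4/80 antigen, was at 9.67, 9.86 and 9.81 in BMM and 7.59, 7.56 and 7.47 in MPI-2, lower (-2.24 ± 0.12). Both stayed above background in MPI-2. Among 36 integrin and adhesion genes 11 were higher and 12 lower, beside 20.6% and 17.95% of all genes. Besides Itgax the higher ones included Cdh1, E-cadherin, at 2.92 ± 0.16, the tetraspanin Cd9 at 2.60 ± 0.24 and the shared chain Itgb2 at 0.79 ± 0.14. The lower ones included Itgav at -2.14 ± 0.14, Itga4 at -2.64 ± 0.20 and Nrp1 at -2.77 ± 0.25.

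Of 22 complement genes 10 were lower and 3 higher, against 17.95% and 20.6% of all genes. C1qc was at least 36.7-fold lower and C1qa lower from 7.13 ± 0.46 (SD, n = 3) to a background level of 3.24 ± 0.12, so all chains of C1q were near or under background in MPI-2. Cfb, the protease precursor of the alternative pathway, was higher by 3.67 ± 0.16, and the anaphylatoxin receptors C3ar1 and C5ar1 were lower (-2.11 ± 0.11 and -1.65 ± 0.17). Among 28 Fc receptor and Ms4a genes 10 were lower and 4 higher (14 and 2 after cyclic loess). Ms4a6c was lower (-5.47 ± 0.17), the high-affinity IgG receptor Fcgr1 (-2.93 ± 0.15) and the inhibitory receptor Pirb (-3.62 ± 0.18), whereas Fcgr2b (0.18 ± 0.11) and Fcgr3 (-0.20 ± 0.16) did not pass. The paired receptor Pilra was higher by 3.31 ± 0.15.

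**Figure D3:**
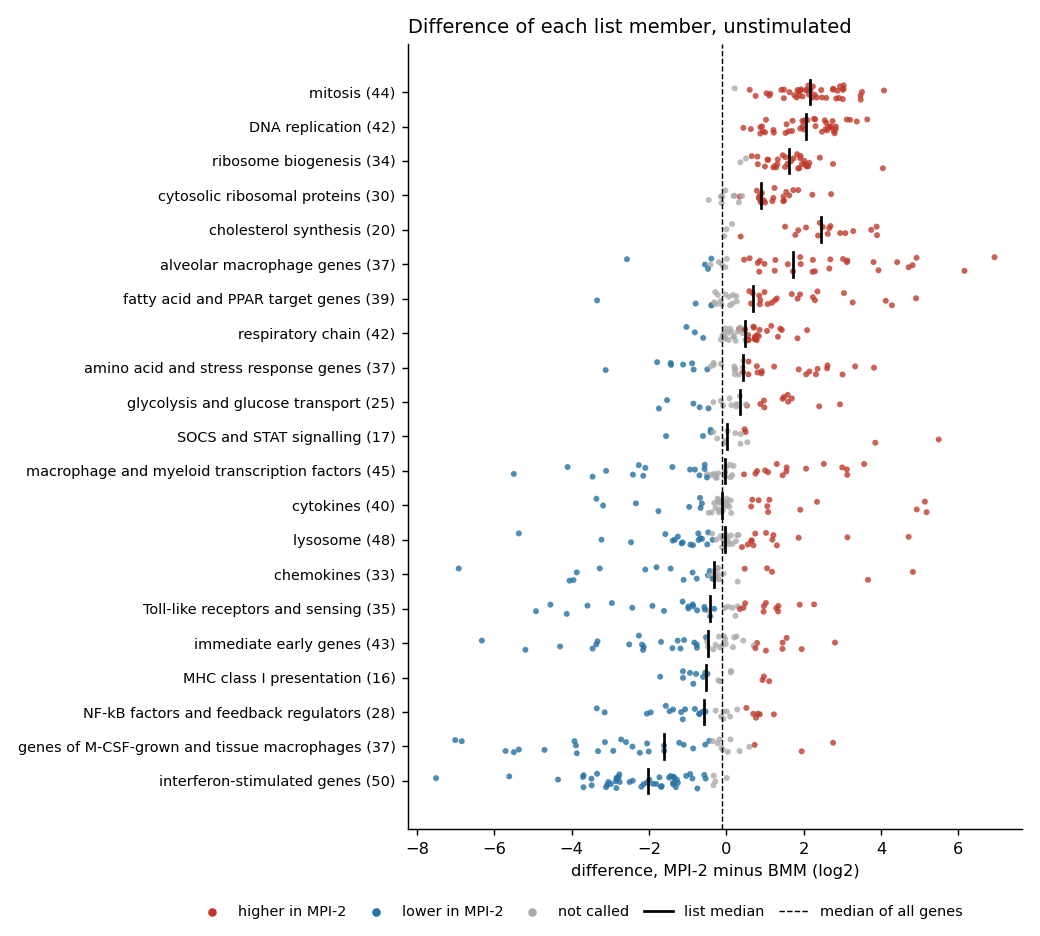
Difference MPI-2 minus BMM (log2, x axis) of every measured member of 21 gene lists, with the number of members in brackets. Points are coloured by the call, short lines are list medians and the dashed line is the median of all genes, -0.10. Mitosis and DNA replication genes lie to the right, with medians of 2.15 and 2.06, and interferon-stimulated genes to the left, with a median of -2.02.

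Interferon-stimulated genes were lower in MPI-2 as a body, 46 of 50 with none higher, against 17.95% of all genes. The median was -2.02, and the list median per array was 6.67, 6.60 and 6.79 in BMM and 4.44, 4.53 and 4.24 in MPI-2. These genes are induced through the type I interferon receptor, and resting macrophages keep them at a tonic level. Ifit1, which binds foreign RNA ends, was at 7.36, 7.30 and 7.58 in BMM and 3.81, 3.74 and 3.59 in MPI-2, lower (-3.70 ± 0.12, adjusted p = 4.16e-12). Ifit3, its partner, was at 8.28, 8.73 and 8.67 in BMM and 3.07, 2.78 and 2.98 in MPI-2, at least 36.6-fold lower. No MPI-2 array of either gene was over 1 log2 unit above background, and the groups did not overlap.

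The lower genes included effectors, sensors and regulators of the pathway. The antiviral enzyme Rsad2 (viperin) was lower (-4.35 ± 0.21), the 2-5A synthetase-like Oasl2 (-3.05 ± 0.15) and Oas2 (-2.20 ± 0.13). The RNA sensors Ifih1 (MDA5) and Ddx58 (RIG-I) were lower (-1.90 ± 0.14 and -0.57 ± 0.13). The feedback protease Usp18 was lower (-3.49 ± 0.14), and the factors Irf7, Stat2 and Irf9 (-2.79 ± 0.20, -2.14 ± 0.16 and -0.94 ± 0.13). The kinase Eif2ak2 (-0.29 ± 0.23) and Gbp7 (-0.34 ± 0.19) did not pass.

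Receptor genes of this pathway were lower as well, Ifnar1 at 9.01, 9.14 and 9.12 in BMM and 7.58, 7.47 and 7.52 in MPI-2 (-1.56 ± 0.11) and Ifnar2 (-1.22 ± 0.11), and the interferon gamma receptor chains Ifngr1 and Ifngr2 (-1.03 ± 0.14 and -0.74 ± 0.15). Ifnb1, interferon beta, was under background in both cell types, at 3.07, 2.91 and 2.56 in BMM and 2.56, 2.36 and 2.78 in MPI-2. Also lower were 9 of 16 genes of MHC class I presentation, among them the peptide transporter Tap1 at -1.71 ± 0.18, its regulator Nlrc5 at -1.12 ± 0.19 and B2m at -0.86 ± 0.12. With median-centred arrays, or without MPI-2 replicate 2, 5 of these 16 were lower. The 3 higher ones, Canx, Calr and Pdia3, are general chaperones of the endoplasmic reticulum, at 1.11 ± 0.23, 0.93 ± 0.13 and 0.97 ± 0.15.

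The promoters of the pair of interferon genes with the largest differences are shown because they hold the repeated element through which this pathway acts. Each runs from 170 bases before to 30 after the RefSeq start on GRCm38.p6, Ifitm3 at chr7:141010715-141010914 on the minus strand and Ifit3 at chr19:34583359-34583558 on the plus strand. Capitals mark matches, on either strand, to the interferon element (GAAA, any 2 bases, GAAA), the STAT motif TTCNNNGAA and the AP-1 motif TGANTCA.
Ifitm3: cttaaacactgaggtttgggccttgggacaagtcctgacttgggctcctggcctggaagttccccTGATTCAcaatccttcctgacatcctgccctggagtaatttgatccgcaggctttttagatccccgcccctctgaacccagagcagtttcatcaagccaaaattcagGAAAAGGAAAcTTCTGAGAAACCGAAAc
Ifit3: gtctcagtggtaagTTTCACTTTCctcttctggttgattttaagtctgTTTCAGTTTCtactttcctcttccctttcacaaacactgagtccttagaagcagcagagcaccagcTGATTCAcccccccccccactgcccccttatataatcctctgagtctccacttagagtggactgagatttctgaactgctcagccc
In Ifitm3 the interferon element begins at positions 3 and 20, the second of them overlapping a STAT match that begins at 14. In Ifit3 it begins at -156 and -122, on the other strand. The element occurred in 21 of 39 windows of the interferon list (53.8%), against 3.44% of all 32851 windows, and in 0 of 34 windows of DNA replication genes. The lists used the first window of each gene, and 3.49% of 27025 such windows held the element. Genes of this list are known for their response to interferon, so the share says nothing of the difference between the cell types. AP-1 letters occurred in 28.2% of the interferon windows and 7.81% of all, and STAT letters in 23.1% and 8.30%. The interferon element and the Ifit3 window were chosen after values were seen.

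For comparison, the windows of Car4, Inhba and C1qb, which with Ifitm3 have the largest differences among named genes with an entry in the sequence table, 2 in each direction, held none of these elements. The C/EBP letters TTGCNNAA matched once in Inhba, at -67, and are found in 10.8% of all windows. The PU.1 letters GAGGAAGT were in 4 of 28 windows of the M-CSF-grown and tissue macrophage list and in 3.20% of all, and the Maf letters TGCTGAC in 1 of 28 and 4.67%. The PPAR direct repeat (AGGTCA, any base, AGGTCA) occurred in none of the 27 windows of alveolar macrophage genes and in 0.0396% of all.

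Sensors of microbes had calls in both directions. Of 35 Toll-like receptor and sensing genes, all above background in at least 1 group, 11 were higher and 18 lower. Of all genes above background 32.3% were higher and 24.3% lower, so only the lower share was over the general one. Tlr4, the LPS receptor, was at 6.79, 7.36 and 7.07 in BMM and 8.79, 9.18 and 8.94 in MPI-2, higher by 1.90 ± 0.19 (adjusted p = 6.84e-07). Its partners were lower: Cd14, which hands LPS to the receptor complex, was at 10.29, 10.10 and 10.19 in BMM and 7.63, 7.76 and 7.89 in MPI-2, lower (-2.43 ± 0.13), and Ly96 (MD-2) was lower (-1.13 ± 0.24). Cd180, a relative of Tlr4, was lower (-4.92 ± 0.16), and its partner Ly86 (MD-1) was at background in MPI-2, 2.61 ± 0.11 (SD, n = 3) against 7.16 ± 0.37.

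Receptors of nucleic acids and lipoproteins were split as well. Tlr9, the DNA sensor, was lower (-4.13 ± 0.20), the bacterial RNA sensor Tlr13 (-2.96 ± 0.22) and their endosomal carrier Unc93b1 (-1.91 ± 0.16). Tlr1 was at least 6.63-fold lower and its partner Tlr2 higher by 0.96 ± 0.13. The cell wall sensor Nod1 was higher by 2.27 ± 0.20, and the signalling proteins Traf6, Tirap and Myd88 by 1.34 ± 0.16, 1.35 ± 0.22 and 0.44 ± 0.15, the call of Myd88 being lost under 6 of the 15 alternatives, with 0.017 after cyclic loess and 0.38 without BMM replicate 2. The inflammasome sensor Nlrp3 (0.23 ± 0.14) and Aim2 (0.039 ± 0.21) did not pass.

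Scavenger receptors and lectins held 16 of 42 higher and 10 lower members, beside 20.6% and 17.95% of all genes. Trem1, an amplifier of inflammation, was at 7.06, 6.09 and 7.05 in BMM and 10.20, 10.23 and 10.34 in MPI-2, higher by 3.52 ± 0.23, with the lectin Clec5a at 3.08 ± 0.24, the sialic acid lectin Cd33 at 3.07 ± 0.16 and the lipoprotein receptor Scarb1 at 2.03 ± 0.23. Cd36, a fatty acid and oxidised-LDL receptor, was at 8.79, 9.59 and 9.27 in BMM and 5.69, 6.07 and 5.85 in MPI-2, lower (-3.34 ± 0.23). The lectins Clec4a1 and Clec12a were lower (-4.61 ± 0.16 and -2.72 ± 0.18). Clec9a, given above with the dendritic cell markers, was among the higher lectins.

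Of 40 cytokine genes 11 were higher and 8 lower, against 20.6% and 17.95% of all genes, and 16 were under background in both. Il1a, the alarmin interleukin 1 alpha, was at 6.53, 5.35 and 5.01 in BMM and 10.58, 10.79 and 10.91 in MPI-2. It was higher by 5.13 ± 0.29 (adjusted p = 9.69e-10), with BMM arrays spread over more than 1 log2 unit. Its relatives Il1b, at 9.39, 8.75 and 8.87 in BMM and 9.86, 10.17 and 10.22 in MPI-2, and the receptor antagonist Il1rn, at 7.23, 7.23 and 7.51 in BMM and 9.27, 9.13 and 9.30 in MPI-2, were higher by 1.08 ± 0.17 and 1.91 ± 0.13, and Il18 by 2.34 ± 0.16. Tnf was at 10.03, 9.44 and 9.69 in BMM and 9.83, 9.88 and 9.79 in MPI-2 and did not pass (0.11 ± 0.14, adjusted p = 0.564). The 3 ranges of Il1b, Il1rn and Il18 did not overlap between groups, and that of Tnf did.

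Il10, Il15 and Tnfsf9 were among the 8 lower cytokines. Il10, which restrains macrophage activation, was at 6.02, 4.93 and 5.68 in BMM and 2.41, 2.47 and 2.19 in MPI-2, at least 4.53-fold lower (adjusted p = 4.29e-08). Il15 was lower (-2.34 ± 0.15) and Tnfsf9 (4-1BB ligand) at least 9.59-fold. Its receptor Tnfrsf9 was higher by 2.73 ± 0.17. Il6 was at 3.63, 4.33 and 3.66 in MPI-2 and 2.85, 2.70 and 2.73 in BMM, at least 1.42-fold higher and within 1 log2 unit of background. Among 37 cytokine receptors 15 were higher and 13 lower, beside 20.6% and 17.95% of all genes. Tnfrsf11a (RANK), the receptor that starts osteoclast formation, was lower (-3.23 ± 0.19), as were Il7r (-2.71 ± 0.18) and Il21r (-2.84 ± 0.19). Il13ra1 was higher by 3.66 ± 0.27, Il17ra by 2.04 ± 0.18 and Il4ra by 0.81 ± 0.16. The call of Il4ra was lost after cyclic loess (0.38).

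Of 33 chemokines 14 were lower and 5 higher (13 and 3 after a further quantile normalization), beside 17.95% and 20.6% of all genes. The monocyte attractants Ccl2 and Ccl7 were lower (-4.06 ± 0.17 and -3.96 ± 0.20). Ccl2 was at 8.99, 8.34 and 8.48 in BMM and 4.60, 4.41 and 4.63 in MPI-2, and no arrays overlapped. Ccl17, a T cell attractant induced by GM-CSF, was at 3.74, 3.16 and 3.22 in BMM and 8.09, 8.22 and 8.28 in MPI-2, higher by 4.82 ± 0.15, with Ccl6 at 3.66 ± 0.19 and Ccl22 at 1.18 ± 0.14. Among 31 chemokine and related receptors 6 were higher and 11 lower. Ccr1 was at least 22.6-fold higher, the nucleotide receptors P2ry13 and P2ry14 were higher by 3.96 ± 0.15 and 2.64 ± 0.16, and Cxcr4 and the platelet-activating factor receptor Ptafr were lower (-2.74 ± 0.20 and -2.59 ± 0.14).

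Of 43 immediate early genes, those of the first response to signals, 20 were lower and 8 higher. All 43 were above background in at least 1 group, and of such genes 24.3% were lower and 32.3% higher. Fos, a subunit of AP-1, was at 9.76, 9.34 and 9.54 in BMM and 6.00, 6.32 and 6.33 in MPI-2, lower (-3.33 ± 0.18), while its relative Fosl1 was higher by 1.95 ± 0.19 and the small Maf protein Maff by 2.81 ± 0.18. The G protein regulators Rgs1 and Rgs2 were lower (-5.20 ± 0.21 and -3.36 ± 0.13) and the phosphatase Dusp1 (-2.14 ± 0.17). NF-kB factors and feedback regulators had 15 of 28 lower and 6 higher (20 and 1 after cyclic loess). All 28 were above background too, so the same shares apply. Nfkbia, the inhibitor that NF-kB induces, was lower (-0.70 ± 0.19), the A20 gene Tnfaip3 (-1.17 ± 0.12) and the prostaglandin synthase Ptgs2 (-3.35 ± 0.13), and the subunit Rela did not pass (-0.076 ± 0.14).

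Proliferation genes were higher in MPI-2 almost without exception. All 42 measured DNA replication genes were called higher, with a median of 2.06, and 43 of 44 mitosis genes, with a median of 2.15, against 20.6% of all genes. Mki67, the Ki-67 antigen of cycling cells, was at 6.37, 6.30 and 6.59 in BMM and 10.01, 9.92 and 9.76 in MPI-2, higher by 3.47 ± 0.13. The helicase subunit Mcm7 was at 5.56, 5.66 and 5.42 in BMM and 8.39, 8.29 and 8.35 in MPI-2, higher by 2.80 ± 0.11 (adjusted p = 2.7e-11), and the spindle checkpoint kinase Bub1b at 3.80, 4.07 and 3.97 in BMM and 7.42, 7.48 and 7.45 in MPI-2, higher by 3.51 ± 0.12. For each of these genes the lowest MPI-2 array was above the highest BMM array, and the BMM levels lay above background. The groups did not overlap for all 42 replication and 43 of 44 mitosis genes, beside 23.04% of all genes with MPI-2 higher.

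The spread within the lists was wide. Replication genes ranged from Rpa1 at 0.44 ± 0.13, a call lost under a further quantile normalization (0.16) and without BMM replicate 3 (0.36) or MPI-2 replicate 1 (0.34) or 2 (0.43), to the ribonucleotide reductase subunit Rrm1 at 3.64 ± 0.21, and mitosis genes from Pttg1 at 0.21 ± 0.13, which did not pass, to Bub1 at 4.08 ± 0.20. The flap nuclease Fen1 was higher by 3.20 ± 0.15, the clamp loader Rfc3 by 2.83 ± 0.14, the methylation reader Uhrf1 by 2.65 ± 0.14 and the kinesin Kif20a by 3.47 ± 0.12.

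Regulators of the G1 phase divided, with 15 of 32 higher and 10 lower. The cyclins Ccnd3, Ccne1 and Ccne2 were higher by 2.20 ± 0.18, 2.04 ± 0.14 and 2.10 ± 0.23, the pocket protein Rbl1 by 2.40 ± 0.16 and the kinases Cdk2 and Cdk4 by 2.10 ± 0.18 and 1.13 ± 0.13. Ccnd1, cyclin D1, went against cyclin D2: it was at 8.81, 8.46 and 8.55 in BMM and 7.14, 6.96 and 7.03 in MPI-2, lower (-1.57 ± 0.23). The growth-arrest genes Btg2 and Gadd45b and the p53 targets Sesn1 and Mdm2 were lower (-2.15 ± 0.16, -2.59 ± 0.20, -2.48 ± 0.12 and -1.66 ± 0.16). Cdkn2a, the locus of p16 and p19, was at 3.84, 3.79 and 3.59 in BMM and 3.60, 3.13 and 3.71 in MPI-2 and did not pass (-0.26 ± 0.19), and Tert was under background in both. Of 18 clustered histone genes, whose near-identical copies can share probes, 11 were higher and 3 lower, and 12 and 5 without BMM replicate 1.

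Genes that build ribosomes followed the same direction. Of 34 ribosome biogenesis genes 32 were higher and none lower, with a median of 1.63. Dkc1, dyskerin, which modifies ribosomal RNA and holds the telomerase RNA, was at 3.40, 3.83 and 3.68 in BMM and 7.68, 7.72 and 7.66 in MPI-2, higher by 4.05 ± 0.19. The nucleolar proteins Nop2, Nop56 and Nolc1 were higher by 2.42 ± 0.15, 1.95 ± 0.13 and 2.06 ± 0.14, and the RNA polymerase I subunits Polr1a and Polr1b by 1.91 ± 0.14 and 2.03 ± 0.14. Of 30 ribosomal protein genes 21 were higher and none lower, with a median of 0.90, among them Rplp0 at 2.22 ± 0.17 and Rpl4 at 1.86 ± 0.17.

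**Figure D4:**
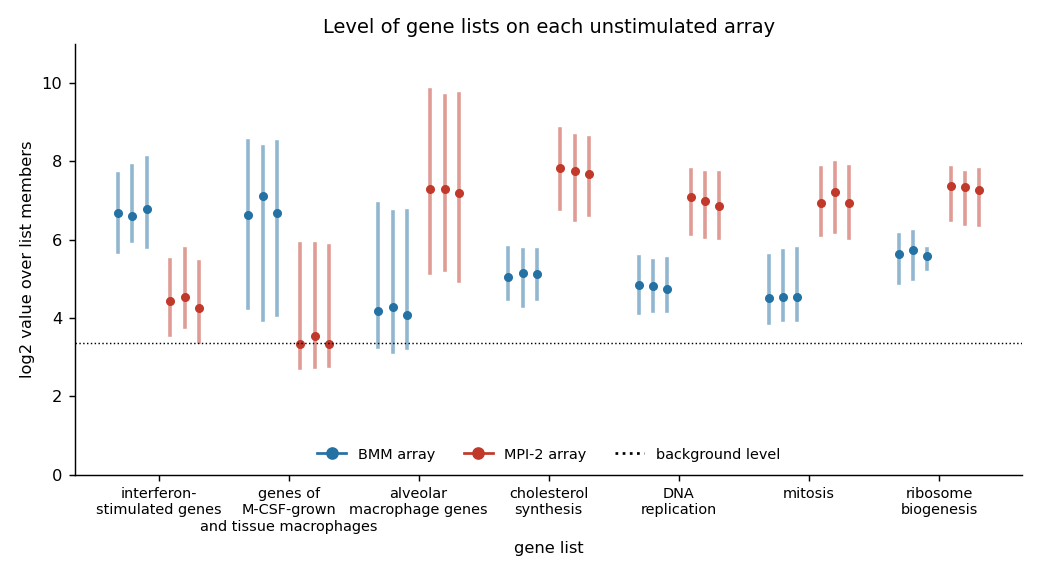
Level of 7 gene lists on each unstimulated array, BMM in blue and MPI-2 in red. Points are the median log2 value over list members, bars the quartiles of the members, and the dotted line is the background level of 3.36. Interferon-stimulated genes and genes of M-CSF-grown macrophages are lower on all 3 MPI-2 arrays, and the other 5 lists are higher on all 3.

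Genes of lipid synthesis were mostly higher in MPI-2. Of 20 cholesterol synthesis genes 17 were higher and none lower, with a median of 2.46, and the list median per array was 5.04, 5.14 and 5.12 in BMM and 7.83, 7.77 and 7.69 in MPI-2. Sqle, squalene epoxidase, was at 5.15, 5.44 and 5.61 in BMM and 9.38, 9.20 and 9.31 in MPI-2, higher by 3.90 ± 0.15, and the lanosterol demethylase Cyp51 at 4.05, 4.43 and 4.02 in BMM and 8.24, 7.95 and 7.97 in MPI-2, higher by 3.89 ± 0.18. The groups did not overlap for either. Dhcr7, the last enzyme of the pathway, was higher by 2.94 ± 0.15, Hmgcs1 at its start by 2.66 ± 0.14, the sterol carrier Stard4 by 3.28 ± 0.15 and the controlling factor Srebf2 by 1.52 ± 0.19. Pmvk (0.14 ± 0.19) and Ebp (-0.053 ± 0.13) did not pass, and Tm7sf2 was under background in both. The sterol element TCACNCCAC, searched after values were seen, was in 1 of 16 windows of these genes and 1.24% of all.

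Fatty acid genes showed a smaller shift, 22 of 39 higher and 3 lower (19 and 6 after cyclic loess), with a median of 0.68. Scd1, the stearoyl-CoA desaturase, was at 2.87, 3.58 and 3.13 in BMM and 8.26, 7.99 and 8.05 in MPI-2, at least 26.6-fold higher, and its relative Scd2 was higher by 3.27 ± 0.24. The lipid-splitting Mgll was at least 18.96-fold higher, the triglyceride-making Dgat2 was higher by 4.12 ± 0.18 and fatty acid synthase Fasn by 3.04 ± 0.14. Members against this direction were Cd36, given above, Fads2 at -0.79 ± 0.15 and Acadvl at -0.39 ± 0.12, a call lost after cyclic loess (-0.30), with median-centred arrays (-0.20) and without BMM replicate 1 (-0.28), MPI-2 replicate 2 (-0.39) or MPI-2 replicate 3 (-0.37). Cholesterol efflux and LXR targets were split, 8 of 18 higher and 8 lower, with the phospholipid transfer protein Pltp at -5.01 ± 0.20, Abca1 at -0.57 ± 0.12 and the LXR receptor Nr1h3 at 1.30 ± 0.25.

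Energy and amino acid genes were higher in part. Of 25 glycolysis genes 11 were higher and 5 lower (14 and 3 with median-centred arrays), among them the glucose transporter Slc2a1 at 1.60 ± 0.19, lactate dehydrogenase Ldha at 1.59 ± 0.14 and the lactate carrier Slc16a1 at 2.40 ± 0.17. Of 42 respiratory chain genes 22 were higher and 3 lower, and 14 and 6 after cyclic loess. Sdhd was higher by 2.09 ± 0.14 while the partner subunits Sdhb and Sdhc were lower (-0.82 ± 0.16 and -1.03 ± 0.21). Of 37 amino acid and stress response genes 18 were higher and 8 lower. The cystine carrier Slc7a11 was at 5.35, 6.16 and 5.47 in BMM and 9.31, 9.65 and 9.47 in MPI-2, higher by 3.82 ± 0.19, glutathione reductase Gsr by 3.33 ± 0.14, the glutamine carrier Slc1a5 by 3.00 ± 0.14 and the serine enzyme Psat1 by 2.62 ± 0.15, and the carriers Slc43a2 and Slc7a8 were lower (-3.12 ± 0.20 and -1.79 ± 0.17).

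Of 18 nitric oxide, arginine and itaconate genes 6 were higher and 5 lower, beside 20.6% and 17.95% of all genes. Slc7a2 was at 5.29, 5.22 and 5.05 in BMM and 10.66, 10.60 and 10.57 in MPI-2, whereas Nos2, the inducible nitric oxide synthase, and Arg1, arginase, were under background in both, at 2.93 ± 0.20 and 3.00 ± 0.098 for Nos2 and 2.74 ± 0.11 and 2.81 ± 0.18 for Arg1 (MPI-2, then BMM). Acod1, which makes itaconate, was lower (-1.67 ± 0.13). Of 21 lipid mediator enzymes 9 were higher and 6 lower, beside the same shares of all genes. The leukotriene enzymes Alox5, Ltc4s and Lta4h were higher by 3.71 ± 0.15, 1.96 ± 0.14 and 1.46 ± 0.17, and the prostanoid enzymes Hpgds and Tbxas1 were lower (-3.14 ± 0.29 and -2.39 ± 0.16), with Ptgs2 as given.

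Lysosomal, matrix and antigen presentation genes had calls in both directions, to be read beside 20.6% higher and 17.95% lower of all genes. Of genes above background in at least 1 group, as 46 of 48 lysosome genes were, 32.3% were higher and 24.3% lower. Of 48 lysosome genes 13 were higher and 18 lower, and the cathepsins divided: Ctsk and Ctsc (1.87 ± 0.15) were higher, Ctss (-2.47 ± 0.12), Ctsl (-3.23 ± 0.12) and Ctsb (-1.39 ± 0.13) lower, and Ctsd did not pass (-0.041 ± 0.14). Of 32 matrix genes 6 were higher and 10 lower, shares to be read against 20.6% and 17.95% of all genes, with the plasminogen activator Plau at -4.29 ± 0.20 and its receptor Plaur at 1.58 ± 0.16, thrombospondin Thbs1 at -3.96 ± 0.20 and fibronectin Fn1 at least 4.57-fold higher. Of 17 genes of MHC class II presentation 8 were higher and 6 lower, in a list that also held surface molecules such as Cd83. The class II chain H2-Aa was at 6.50, 6.00 and 6.52 in BMM and 8.02, 8.04 and 8.12 in MPI-2 (1.72 ± 0.16) and its chaperone Cd74 higher by 1.01 ± 0.21, while Cd86, Cd83 and Cd80 were lower (-2.67 ± 0.19, -3.63 ± 0.16 and -2.04 ± 0.17), and the inhibitory ligand Cd274 (PD-L1) was higher by 1.22 ± 0.19. Of 23 iron genes 6 were higher and 8 lower, with Alas1 at 2.06 ± 0.12 and Hmox1 at -1.12 ± 0.19.

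In a list of fetal and Hox genes 19 of 32 were under background in both groups, 4 were higher and 8 lower. Igf2bp3, an RNA-binding protein of fetal blood cells, was at 3.37, 3.12 and 3.15 in BMM and 6.51, 6.37 and 6.01 in MPI-2, at least 7.62-fold higher. Hmga2, a chromatin protein also known from fetal blood stem cells, was at 7.55, 7.82 and 8.28 in BMM and 3.84, 3.65 and 4.28 in MPI-2, lower (-3.96 ± 0.21). Lin28b, which opposes let-7 microRNAs, was under background in both, 2.43 ± 0.083 and 2.69 ± 0.15 in MPI-2 and BMM. The 8 lower calls fell to 2 after cyclic loess or median centring, and to between 4 and 5 without BMM replicate 1 or 2 or MPI-2 replicate 1 or 2. Pdgfra, a receptor listed among fibroblast markers, was higher by 2.74 ± 0.16, while the collagen genes Col1a1 and Col3a1 of that list were lower, (-0.57 ± 0.14) and at least 1.52-fold, the call of Col3a1 being lost after cyclic loess (-0.40) and without MPI-2 replicate 2 (-0.54).

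Y-linked genes differed between the groups. Uty was at 6.31, 6.90 and 6.77 in BMM and 3.22, 3.92 and 3.89 in MPI-2, lower (-2.99 ± 0.24), Kdm5d was lower (-2.32 ± 0.15), and Eif2s3y was lower, from 6.24 ± 0.45 in BMM to 4.24 ± 0.26. Their MPI-2 means, 3.67 ± 0.40, 3.79 ± 0.22 and 4.24 ± 0.26 (SD, n = 3), were within 1 log2 unit above background, and Xist, the RNA of the inactive X, was under background in both. The part of these genes in any other difference was not tested.

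MicroRNA genes were lower more often than higher. Of 33 with myeloid roles 16 were lower and 5 higher, and of all 296 measured 82 and 14, against 17.95% and 20.6% of all genes, and 271 of them have an entry in the RefSeq sequence table. The probe sets read the hairpin locus and the primary transcript around it, not the mature form. Mature sequences of some of the genes with called differences are given from RefSeq (GRCm38.p6). The sequences include pairs that share a seed and others with a myeloid role, while miR-99a-5p was chosen after its value was seen. They run 5′ to 3′, with the seed, bases 2 to 8, in capitals.
mmu-miR-221-3p: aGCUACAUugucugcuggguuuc
mmu-miR-222-3p: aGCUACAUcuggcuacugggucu
mmu-miR-155-5p: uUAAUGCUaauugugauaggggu
mmu-miR-146a-5p: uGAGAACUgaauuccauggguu
mmu-miR-99a-5p: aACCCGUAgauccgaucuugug
mmu-let-7c-5p: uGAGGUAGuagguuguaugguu
mmu-miR-19a-3p: uGUGCAAAucuaugcaaaacuga
mmu-miR-19b-3p: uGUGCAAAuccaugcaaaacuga
mmu-miR-17-5p: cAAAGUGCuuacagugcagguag
mmu-miR-20a-5p: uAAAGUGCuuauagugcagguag
In the first pair the seed GCUACAU is shared, in miR-19a and miR-19b GUGCAAA, and in miR-17 and miR-20a AAAGUGC.

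The microRNA genes lower in MPI-2 included the pair with the shared seed GCUACAU. Mir222 was at 7.97, 7.59 and 7.21 in BMM and 3.69, 3.73 and 4.06 in MPI-2, lower (-3.76 ± 0.19, adjusted p = 3.09e-10), and Mir221 (-2.95 ± 0.26). Mir155, known from inflammatory activation, was lower (-1.87 ± 0.13). Mir146, which encodes miR-146a, a brake on Toll-like receptor signalling, was under background in MPI-2, 2.64 ± 0.090 against 4.82 ± 0.84 in BMM. Mir99a was at 7.83, 6.33 and 6.43 in BMM and 2.16, 2.26 and 2.33 in MPI-2. Mirlet7c-1, its neighbour in the genome, was at 5.24, 4.91 and 4.90 in BMM and 2.04, 2.33 and 2.26 in MPI-2. Both were under background on every MPI-2 array, and Mir99a was chosen after its values were seen.

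Those higher in MPI-2 included genes of 1 cluster, known as oncomiR-1 and a target of Myc. Mir19b-1 was at 3.25, 3.82 and 3.20 in BMM and 5.32, 5.23 and 5.11 in MPI-2, higher by 1.79 ± 0.16, and Mir19a was at least 2.39-fold and Mir17 at least 1.75-fold higher. Mir18 of the same cluster did not pass (0.62 ± 0.30, adjusted p = 0.116). In BMM these loci were within 1 log2 unit of background, apart from Mir18 at 5.64 ± 0.60 (SD, n = 3). Mir19b-2 on chromosome X, which encodes the same mature miR-19b-3p as Mir19b-1, differed by 0.15. Myc itself was at 8.60, 7.84 and 8.21 in BMM and 9.90, 9.64 and 9.78 in MPI-2.

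The LPS arrays gave the same difference from other group means, but both sets of calls share the residual spread fitted over all 12 arrays. The overlap of calls is therefore not that of separate fits. There 4488 genes (22.5%) were higher in MPI-2 and 4312 (21.6%) lower. Of the 4108 genes higher without stimulation 3262 (79.4%) were called higher after LPS too, which is 72.7% of the calls after LPS, and of the 3579 lower genes 2033 (56.8% and 47.1%). Calls of opposite direction numbered 103 and 114. Interferon-stimulated genes had a median of -4.27 after LPS against -2.02 before, cholesterol synthesis genes 2.20 against 2.46, and mitosis genes 2.18 against 2.15.

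Whether the cell type difference was of another size after LPS was tested for 36 macrophage genes by the interaction term, which was called for 2662 (13.4%) of all genes. It passed for 18 of the 36. The difference of Cd14 shrank from -2.43 ± 0.13 to -0.32 ± 0.13 (interaction adjusted p = 1.32e-06) and that of Il1a from 5.13 ± 0.29 to 0.70 ± 0.29 (2.06e-06). The difference of Il10 was -6.82 ± 0.25 after LPS (3.49e-06), and that of Ifnb1, under background in both without stimulation, -6.26 ± 0.24 (2.19e-08). Both genes were under background in MPI-2 also after LPS, so these values are fitted differences and not exact sizes. Itgax and Bhlhe41 were further above BMM after LPS, at 3.57 ± 0.17 (0.000163) and 5.23 ± 0.18 (4.26e-05). For Tlr4 (2.02 ± 0.19), Pparg (2.58 ± 0.14) and Myc (1.01 ± 0.18) the interaction did not pass, with adjusted p of 0.871, 0.357 and 0.191, which does not show equal sizes.

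**Figure D5:**
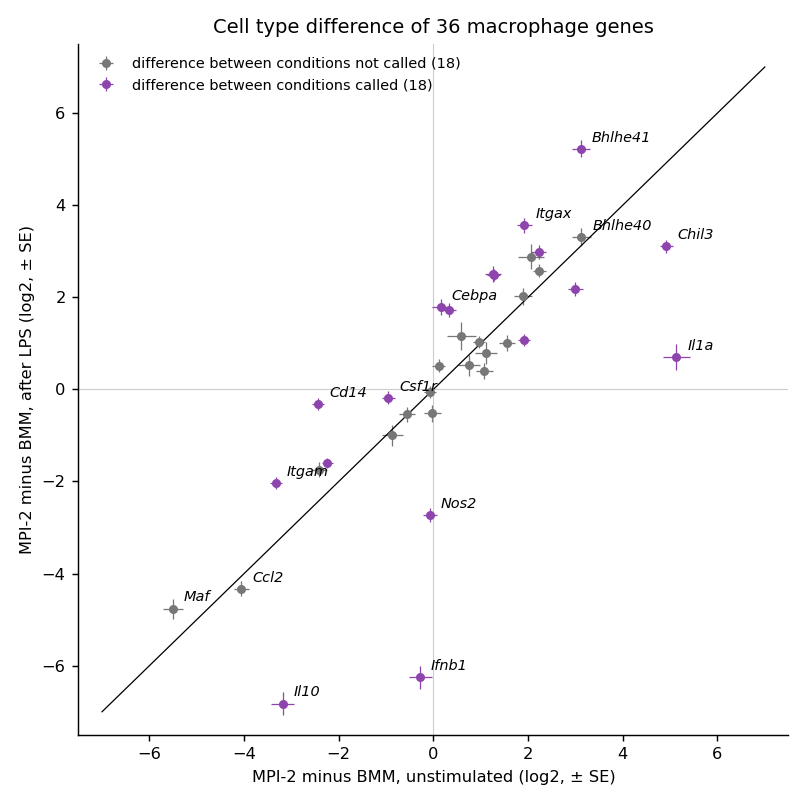
Difference MPI-2 minus BMM (log2, with SE) without stimulation (x axis) and after LPS (y axis) for 36 macrophage genes, 3 arrays a group. The line marks equal differences and purple marks the 18 genes whose differences were called unequal by the interaction term. Il1a lies below the line and Cd14 above it. Values of Il10, Ifnb1, Nos2, Chil3, Il6, Arg1 and Maf rest on at least 1 group mean under background.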

How the data were processed

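Each of the 12 samples was 1 Affymetrix whole-transcript array of newly made, 4-thiouridine-labelled RNA. The authors deposited 1 log2 value per probe set and array, made with RMA and affy per the submitters' processing notes. The base of the logarithm was taken from the range of the values, and RMA's background correction is known to compress differences of dim genes. Of 34760 probe sets, 21640 had 1 gene symbol, 1321 had several and 11799 were not named here. Where several probe sets named 1 gene, the brightest on average over the 12 arrays was kept, which gave 19937 genes. Means of the 4 groups were fitted in limma 3.58.1 (R 4.3.3) over the 12 arrays with empirical Bayes and Benjamini-Hochberg adjustment, and the step was tested on simulated data. Genes were named by rule: the 15 called genes without overlap furthest in each direction, the 4 of lowest p in each list, up to 3 called against a list's main direction, and 36 fixed macrophage genes, 263 in all. A further 108 list or marker genes in the text were chosen after their values were seen. The comparison, the 48 gene lists and the tests were chosen with earlier results of these data known. Motifs were searched in RefSeq promoter windows of GRCm38.p6. The 15 alternatives covered the scaling, the filter, the probe set rule, the variance model, array weights, the replicate block and leaving out each array.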

Additional observations from a re-analysis of the deposited data

Results flagged for a closer look

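For 18 of 36 macrophage genes the difference between the cell types changed in size with LPS, as the interaction term of the limma fit over all 12 arrays called (adjusted p under 0.05 over all genes, 13.4% of which passed). The values are differences after LPS minus those without stimulation, on the log2 scale with SE. Among surface receptors they were 2.11 ± 0.18 for Cd14 (1.32e-06), 1.64 ± 0.24 for Itgax (0.000163), 1.29 ± 0.18 for Itgam (0.000137), 1.40 ± 0.22 for Csf2rb2 (0.00035), 1.21 ± 0.19 for Csf2rb (0.000438), 0.77 ± 0.20 for Csf1r (0.0152), 0.76 ± 0.23 for Marco (0.037) and 0.64 ± 0.17 for Adgre1 (0.0162). All of these were positive, so relative to BMM their level in MPI-2 was higher after LPS than before it. Among cytokines and effectors they were negative: -5.98 ± 0.35 for Ifnb1 (2.19e-08), -4.43 ± 0.40 for Il1a (2.06e-06), -3.64 ± 0.35 for Il10 (3.49e-06), -2.65 ± 0.22 for Nos2 (7.78e-07), -1.81 ± 0.19 for Chil3 (9e-06) and -0.84 ± 0.18 for Il1rn (0.00458). Ifnb1 and Nos2 were under background in both cell types without stimulation and in MPI-2 after LPS, Il10 in MPI-2 and Chil3 in BMM with and without LPS, so the values of these 4 genes are fitted differences and not exact sizes. Transcription factors divided, with 2.11 ± 0.26 for Bhlhe41 (4.26e-05), 1.64 ± 0.25 for Cebpa (0.000282) and -0.82 ± 0.22 for Irf4 (0.0214), and the lipid carrier Fabp4 was at 1.26 ± 0.24 (0.00209).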

How the results depend on the processing

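Across the 15 alternatives the number of genes higher in MPI-2 ran from 3256 after a further quantile normalization to 5032 with median-centred arrays, against 4108. Median centring moved the genes lower in MPI-2 from 3579 to 1910, the one main count to move by over 1.5 times. Leaving out 1 array gave 3625 to 3935 higher and 2636 to 3385 lower genes. By at least 2-fold, 2053 higher and 1010 lower genes became 1476 and 1354 after cyclic loess, 1547 and 1359 after quantile normalization, and 2658 and 806 with median centring. With the titles' replicate number as a block 4126 genes were higher and 3505 lower. Same-numbered arrays of the cell types did not deviate together (r of 0.0892, 0.0845 and -0.1489 for numbers 1, 2 and 3, against -0.1973 to 0.171 for unlike numbers), so these numbers were not taken to pair the samples. The descriptions number the unstimulated MPI-2 arrays otherwise, and a block by those numbers was not run. Of the 263 genes named by rule, 20 lost their call under some alternative and none reversed a call. Of the 108 further genes 8 lost theirs, and Mitf, not called in the main setting, was lower after cyclic loess (-0.43). Of 48 list medians 12 changed sign under some alternative. Of the lower calls 531 had both means under background, and the number of arrays limits the precision of all values.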
